A study of Homo sapiens with 40 samples.

Results

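The response of BT474 cells to 1 h of EGF was described from 4 ATAC-seq peak lists, 2 from cells given EGF and 2 from cells given the vehicle. ATAC-seq inserts sequencing adapters into open chromatin, so a peak marks DNA that was accessible in that library. The peaks of the 4 lists on chromosomes 1 to 22 and X were merged where they overlapped by at least 1 bp, which gave 55399 regions, against 76603 when all 40 lists of the series were merged in the same way. A region was called opened when both EGF lists and neither control list held a peak there, and closed in the reverse case. Regions with a peak in all 4 lists, called shared here, were compared by the rank of their score within each list.

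BT474 is an established breast ductal carcinoma line that overexpresses HER2, and BT474R is a trastuzumab-resistant clone derived from it. Cells of all groups were first starved of serum. They then received EGF, heregulin (HRG) or vehicle (water, the control) in fresh starvation medium for 1, 12 or 24 h, while baseline cells were collected at 0 h without a further treatment. Each group had 2 libraries, 40 in all, and the comparison below used the 4 BT474 libraries of EGF and control at 1 h (sample labels S1_EGF and S1_Con). The labels do not say whether the replicates came from separate cultures and the study treated cells in duplicate, so the tests measure the spread between these samples, which may be technical.

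EGF binds EGFR, which pairs with HER2 and activates the RAS, RAF, MEK and ERK kinase cascade. The first nuclear targets of that cascade are the immediate early genes, whose promoters are bound by serum response factor (SRF) and ETS factors, and whose products include the FOS and JUN proteins. FOS and JUN pair to form AP-1, a factor that binds many enhancers, and SRF, which binds the CArG box, also serves the actin cytoskeleton genes. Phosphatases of the DUSP family inactivate MAP kinases, some mainly ERK and others mainly different MAP kinases. Proteins of the Sprouty and SPRED families act as feedback inhibitors of ERK signalling.

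The sequences around the summits of 3 regions show the motifs that recurred at sites gained or strengthened after EGF. They are the members of the 10 strongest opened regions and the 10 regions ranked higher with the smallest adjusted p that held an AP-1 motif or a CArG box outside exons, apart from the one at ERICH1, each read over 201 bases of the plus strand of GRCh38. Capitals mark AP-1 motifs (TGACTCA or its reverse complement TGAGTCA) in the first and second, and a CArG box in the third. The first lies in an intron of BORCS5 (chr12:12398406-12398606), the second in an intron of UBAP1 (chr9:34186377-34186577) and the third just upstream of a transcript start of MYH9 (chr22:36329444-36329644).
BORCS5: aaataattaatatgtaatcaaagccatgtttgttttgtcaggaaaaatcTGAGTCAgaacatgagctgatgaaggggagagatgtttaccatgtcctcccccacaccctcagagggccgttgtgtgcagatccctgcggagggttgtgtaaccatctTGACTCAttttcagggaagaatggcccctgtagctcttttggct
UBAP1: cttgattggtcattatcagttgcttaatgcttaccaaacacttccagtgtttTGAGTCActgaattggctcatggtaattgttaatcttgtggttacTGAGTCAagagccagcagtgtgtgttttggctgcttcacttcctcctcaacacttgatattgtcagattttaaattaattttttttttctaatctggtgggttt
MYH9: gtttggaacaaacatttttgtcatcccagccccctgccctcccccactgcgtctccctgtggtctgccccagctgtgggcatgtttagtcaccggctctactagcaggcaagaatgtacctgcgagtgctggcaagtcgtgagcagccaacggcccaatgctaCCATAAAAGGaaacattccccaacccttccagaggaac

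The 2 control libraries held 48788 and 49195 peaks and the 2 EGF libraries 52629 and 48883. The means were 50756 ± 2649 (SD, n = 2) after EGF and 48992 ± 288 (SD, n = 2) in the control, and the groups overlapped (two-sided exact permutation p = 0.667, where 2 against 2 cannot go below 0.333). The lists carry no read totals, so sequencing depth could not be known, and a missing peak means only that the caller made no call. Over the 42540 shared regions, the rank correlation of scores was 0.974 between the control replicates, 0.979 between the EGF replicates and 0.950 to 0.955 between libraries of different arms. Of 20 luminal markers, 19 had a promoter peak in all 4 lists, and TFAP2B had none. Of 12 immune, endothelial and stromal markers, 7 had no promoter peak in any list, among them PTPRC, CD3E, SPI1 and PECAM1, while 4 had one in all 4 lists and 1 in 2 lists. Of 13 basal and mesenchymal markers, 8 had one in all 4 lists, and KRT14, KRT17, ZEB2 and FN1 had none. A promoter peak shows access and not expression.

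After 1 h of EGF more regions were gained than lost. EGF opened 1810 regions (3.27% of the 55399 merged regions) and closed 779 (1.41%). Most regions did not differ in presence, since 42540, or 76.8%, had a peak in all 4 lists. The 1586 regions found in 1 library of each arm, and the 2778 and 1925 found in a single EGF or control library, show how often a peak came and went between replicates. Opened regions made up 69.9% of the 2 changed classes, and 53.5% (1414 opened, 1227 closed) when each list was cut to its 48788 strongest peaks, the number in the shortest list. The share was 52.0% without EGF replicate 1, the longest list, and 77.45% without EGF replicate 2. It was 61.8% and 62.0% without control replicates 1 and 2. With 2 libraries an arm no test of a single region can pass, so these counts are descriptions.

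**Figure D1:**
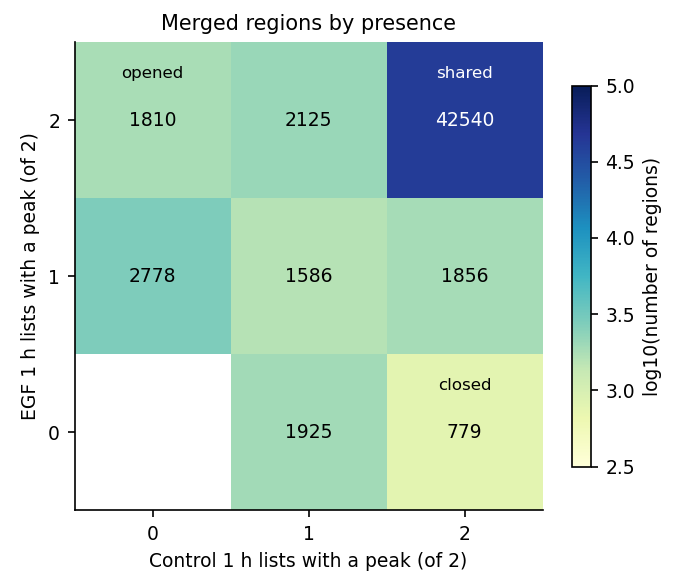
The number of merged regions by how many of the 2 control lists (horizontal axis) and how many of the 2 EGF lists (vertical axis) held a peak, with colour on a log10 scale. The corner of shared regions holds 42540, the opened corner 1810 and the closed corner 779.

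Opened and closed regions were weak peaks. On a scale where 100 is the strongest peak of a list, the median rank percentile was 12.6 for opened regions in the EGF lists and 10.4 for closed regions in the control lists. Only 13 of 1810 opened regions and 1 of 779 closed regions lay above the middle of their lists on average. In 51 opened regions and 6 closed regions both peaks scored at least 400, while the lowest score in any list was 200. They were also narrow, with a median width of 312 bp for opened and 366 bp for closed regions against 525 bp over all merged regions.

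The strongest opened region near an immediate early gene lay beyond the end of NR4A1, which encodes a nuclear receptor induced within minutes by growth factors. This region (chr12:52059747-52061341), 3.66 kb from the nearest NR4A1 transcript start, had list rank percentiles of 67.3 and 75.1 in the 2 EGF libraries and no peak in either control library. It also had a peak in 1 of the 2 baseline lists and in both HRG lists at 1 h. At 12 and 24 h all 4 control lists and 0 of the 4 EGF lists held it. Another opened region covered an NR4A1 start itself at list rank percentiles of 4.79 and 0.52, near the bottom of both EGF lists.

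The strongest opened regions of all lay upstream of NRBP2 on chromosome 8. A 2907 bp region had list rank percentiles of 88.7 and 87.7 in the EGF libraries, and its neighbour 62.0 and 65.1. A region in an exon of EPPK1, on the same stretch of chromosome 8, had 60.6 and 64.3. EPPK1 encodes epiplakin, a protein that binds keratin filaments. Among other members of the 10 strongest, the AP-1 bearing regions printed above had 60.4 and 62.2 at BORCS5 and 62.8 and 46.6 at UBAP1. An opened region next to a start of STAT6, a cytokine-activated transcription factor, had 56.5 and 63.1. A further 2 lay 8.11 kb from a start of MYH9 (60.5 and 51.4) and in CFL1 (56.9 and 51.0), genes for the heavy chain of non-muscle myosin and the actin-severing protein cofilin.

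The strongest closed region lay in FASN, the gene for fatty acid synthase. It spanned 4665 bp (chr17:82082085-82086749), with its summit in an exon. Its list rank percentiles were 49.6 and 68.6 in the control libraries, and it had no peak after 1 h of EGF. In other lists of the same line its presence varied. It had a peak in 1 of the 2 baseline lists and in 1 of the 2 HRG lists at 1 h. At the later times 2 EGF lists and 3 control lists held one, but not all lists of either arm. CACNA2D3, a calcium channel subunit gene, held the next strongest in an intron, at 49.2 and 42.5. Those at PTPA, ANKFN1, VAT1L, TNRC18, ABCC4, MPST, MRPS33 and TNRC6B had values between 29.7 and 50.6 in the single control libraries. Of the 10 strongest closed regions 7 had their summit in an intron of the nearest gene, and 1, at ABCC4, held an AP-1 motif.

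Among shared regions, EGF raised the rank of 879 and lowered that of 668 of the 42540 tested (2.07% and 1.57%, limma on normal scores of the ranks, Benjamini-Hochberg adjusted p below 0.05). At an unadjusted p below 0.05 the counts were 4444 and 4202. For these tests ranks were taken among the shared regions alone, and this scale is named the shared rank below. The regions ranked higher had a median shared rank percentile of 49.9 and 49.1 in the control libraries and 66.5 and 66.6 after EGF. The regions ranked lower had 71.1 and 71.7 in the control and 56.4 and 56.3 after EGF. The counts depended on single libraries. Without EGF replicate 1 they were 97 and 196, without EGF replicate 2 they were 96 and 242, without control replicate 1 they were 769 and 275, and without control replicate 2 they were 544 and 301, each fit assuming that the lone library varied like the other arm. With ranks taken among all peaks of a list they were 1473 and 600, so the share ranked higher among called regions was larger on that scale.

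Genes of actin and myosin were the nearest genes at 3 of the 10 regions ranked higher with the smallest adjusted p. The region over ACTB, the gene for beta actin (chr7:5518110-5527251), was at shared rank percentiles of 99.61 and 99.59 in the control libraries and 99.96 and 99.95 after EGF. Near the top of the scale the normal scores still separated these values, with a difference of 0.687 (SE 0.026, limma adjusted p = 0.000144). A region 4.64 kb from a start of ACTG1, which encodes gamma actin, went from 95.01 and 95.66 to 99.17 and 99.21, a difference of 0.725. The MYH9 start printed above went from 76.6 and 80.0 to 96.3 and 96.2, a difference of 1.00 (SE 0.049, limma adjusted p = 0.000382). In SHROOM3, whose product recruits actin regulators to cell junctions, an intronic region went from 84.8 and 81.8 to 97.8 and 98.1.

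The largest difference of these 10 was at PLK2, which encodes a polo-like kinase known as a serum-inducible gene. The region (chr5:58451700-58453598), 2.30 kb from a start of the gene, was at shared rank percentiles of 15.9 and 12.5 in the control libraries and 78.7 and 77.4 after EGF. The difference was 1.85 (SE 0.092, limma adjusted p = 0.000382). The other regions of the set lay near ERICH1, MAP1LC3A, HCFC1R1, NR2E3 and KDM7A and differed by 0.798 to 1.06. In all 10 both EGF values lay above both control values, which follows from choosing them by adjusted p in these same 4 libraries. In a fit of all 20 BT474 lists 2 of the 10 passed. That fit took only regions with a peak in every list, so the PLK2 region was not in it.

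The 10 regions ranked lower with the smallest adjusted p began with an intron of SDC4, the gene of the heparan sulfate proteoglycan syndecan-4. There (chr20:45341604-45344670) the shared rank percentile was 98.9 and 98.7 in the control libraries and 90.3 and 91.3 after EGF, a difference of -0.924 (SE 0.042, limma adjusted p = 0.000345). The start of VIPR1, a receptor for vasoactive intestinal peptide, went from 96.6 in both control libraries to 85.3 and 84.4. An intron of SEMA5A, a semaphorin gene, went from 94.9 and 95.1 to 77.2 and 79.5. The largest difference of the set, -1.01, was at a region whose nearest protein-coding start is that of RBM5, an RNA-binding protein gene, and which went from 83.5 and 81.9 to 46.1 and 48.3. The rest lay near KLHDC4, ZNF296, SRCIN1, LZTS2, UST and MLPH and differed by -0.871 to -0.524. These 10 were chosen from the same 4 libraries too, and 4 of them passed in the fit of all 20 BT474 lists.

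**Figure D2:**
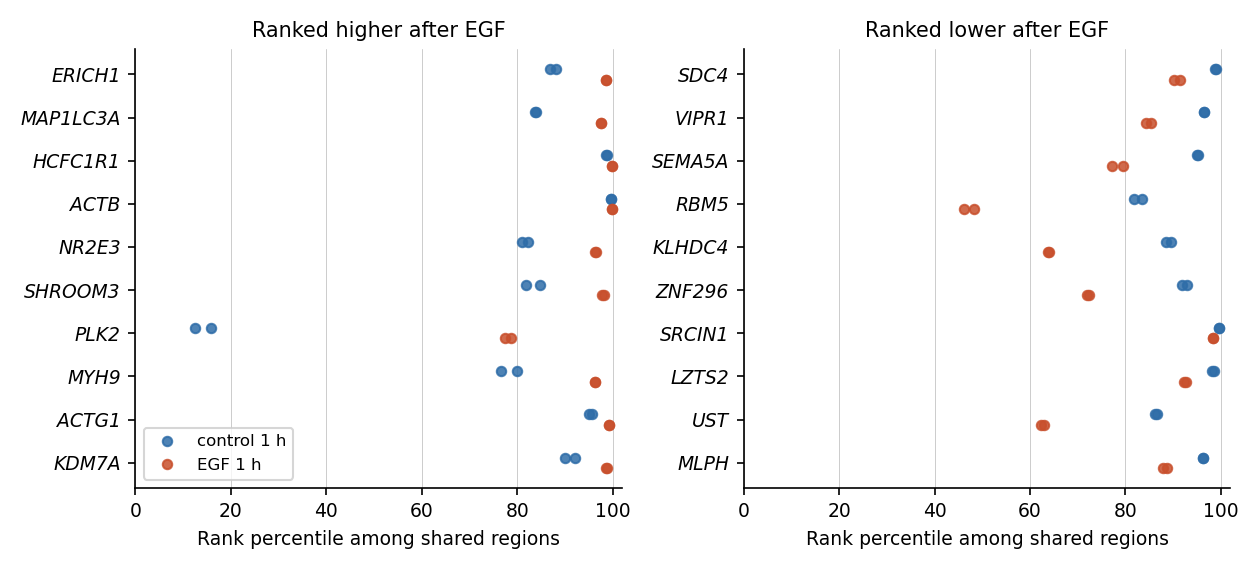
Rank percentile among the 42540 shared regions (horizontal axis, 100 is the strongest) of the 10 regions ranked higher and the 10 ranked lower after EGF with the smallest adjusted p, each named by the nearest protein-coding transcript start. Each point is 1 library, blue for control and orange for EGF. The 20 regions were chosen from these same libraries, so the clear separation of the arms follows from that choice.

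Genes of the EGF pathway were then read from lists by role. A region was assigned to a gene when it lay within 1 kb of one of its transcript starts or when the nearest protein-coding start within 100 kb was its own, which does not show that the region regulates that gene. Over all regions the shares to compare with are 3.27% opened, 1.41% closed, 2.07% ranked higher and 1.57% ranked lower.

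Around the 25 immediate early transcription factor genes, gains outnumbered losses. Of 151 regions 10 were opened (6.62%) and 0 closed, and of 122 shared regions 12 were ranked higher (9.84%) and 1 lower (0.82%). The gains fell at 12 of the 25 genes, and the share of all genes with a gain was not counted. At the start of EGR3, which encodes a zinc finger factor, the shared rank percentile was 68.2 in both control libraries and 93.0 and 96.6 after EGF, and that region held a CArG box. Downstream of EGR1, 4.78 kb from its start, it was 89.6 and 90.5 in the control and 97.8 and 98.5 after EGF (difference 0.806, SE 0.052, limma adjusted p = 0.0012). Upstream of KLF6, a Krüppel-like factor gene, 3 regions were ranked higher, the strongest change from 5.73 and 1.82 to 47.5 and 43.4 (difference 1.72, SE 0.239, limma adjusted p = 0.0163). Regions at JUN, ATF3, MAFK and IER2 were also ranked higher, with 2 each at JUN and MAFK.

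The main start regions of FOS, JUN, JUNB and EGR1 themselves did not pass the test. They were already open in the control, with EGR1 at shared rank percentiles of 99.86 and 99.84 in the control libraries and 99.83 in both EGF libraries. The main JUN start region was at 99.1 and 98.7 against 99.2 and 99.3 (difference 0.12, SE 0.046, limma adjusted p = 0.213). FOS had 2 regions at its start with limma adjusted p of 0.459 and 0.777. At JUNB the upstream region was at 89.8 and 90.5 against 92.2 and 93.5 (difference 0.176, SE 0.046, limma adjusted p = 0.0834). A test that does not pass does not show that access was equal. The only region of the list ranked lower lay 14.4 kb upstream of FOSL2, a FOS family gene, at 92.6 and 92.9 in the control and 89.0 and 88.3 after EGF. Further upstream 2 weaker sites were opened, and the one at 46.7 kb also had a peak in both baseline lists. Of the 12 higher calls of this list, 2 remained without either EGF library in turn, 7 without control replicate 1 and 5 without control replicate 2, and the lower call was lost in each case.

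The list named ERK feedback inhibitors, with 16 genes, had gains at 6 genes and no region closed or ranked lower. Here too no share of all genes with a gain was taken to set beside the 6 genes of the list. It includes DUSP8, DUSP10 and DUSP16, phosphatases that act mainly on MAP kinases other than ERK, and each of these had regions ranked higher. Of 121 regions 4 were opened (3.31%, close to the share over all regions) and 0 closed, and of 92 shared regions 9 were ranked higher (9.78%) and 0 lower by limma, with 26 and 2 at an unadjusted p below 0.05. SPRED2, an inhibitor of RAF activation, had 3 regions ranked higher, 2 of them at transcript starts and holding AP-1 motifs, with shared rank percentiles of 29.9 and 32.5 against 47.0 and 50.7 at the first. DUSP8 went from 19.2 and 25.2 to 50.4 and 55.6 at its start (difference 0.845, SE 0.118, limma adjusted p = 0.0167). At an intronic site whose nearest start is that of DUSP16 the shared rank percentile went from 3.54 and 3.45 to 52.9 and 42.2 (difference 1.75, SE 0.201, limma adjusted p = 0.00942). The site lay 54.7 kb away from that start. At 12 and 24 h it had a peak in 2 of the 4 EGF lists and in all 4 control lists. DUSP4 had 2 regions ranked higher and 3 opened. The opened sites 6.66 and 3.38 kb from a DUSP4 start also had a peak in both baseline lists, and in 3 and 4 of the 4 control lists at 12 and 24 h. An opened site 11.5 kb upstream of DUSP1 was very weak, at list rank percentiles of 0.85 and 3.59. The DUSP6 promoter was at 99.78 in both control libraries and 99.80 and 99.77 after EGF (limma adjusted p = 0.884). With either EGF library left out 0 of the 9 calls remained, and 6 and 4 without control replicates 1 and 2.

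Among 15 HER receptor and ligand genes, 51 regions held 2 opened and 0 closed, and 38 shared regions held 2 ranked higher and 2 lower. EGFR, the EGF receptor, had both directions. A site 33.3 kb upstream went from 20.2 and 11.8 to 40.9 and 50.8 in shared rank percentile, and a site within the gene went from 79.0 and 76.4 to 68.8 and 68.9. Its promoter differed by 0.093 (SE 0.05, limma adjusted p = 0.352). EREG, the gene of the EGFR ligand epiregulin, had a site with an AP-1 motif ranked higher, from 61.8 and 65.2 to 80.3 and 82.6 (difference 0.552, SE 0.057, limma adjusted p = 0.00684). TGFA, which encodes another EGFR ligand, had an intronic site ranked lower, from 56.7 and 58.05 to 42.5 and 43.9. At ERBB2, the HER2 gene, the broad region over the gene was at the top of all 4 lists, and an intronic site 3.29 kb from a start was opened at list rank percentiles of 31.8 and 34.9. ERBB3 differed by 0.049 at its promoter (limma adjusted p = 0.573). With either EGF library left out 1 of the 2 higher calls remained, without control replicates 1 and 2 the numbers were 2 and 1, and 0 of the 2 lower calls remained in any of these fits.

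For the 34 HER signalling adaptors and kinases the opened share was close to that over all regions. Of 104 regions 4 were opened (3.85%) and 1 closed (0.962%), and of 85 shared regions 0 were ranked higher and 1 lower (1.18%) by limma, with 9 and 12 at an unadjusted p below 0.05. Opened sites lay near GAB2, PIK3CB and RPTOR, at list rank percentiles from 2.24 to 39.97. The lower call of this list was lost when either control library was left out.

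Gains were again in the majority around 33 adhesion, matrix and migration genes. Of 217 regions 15 were opened (6.91%) and 1 closed, and of 168 shared regions 15 were ranked higher (8.93%) and 4 lower (2.38%). CCN2, a matricellular protein gene, had its start ranked higher, from 58.7 and 66.3 to 81.5 and 77.8, together with an upstream site that held an AP-1 motif. Opened sites lay 1.55 kb upstream of a start of ITGA2 (list rank percentiles 46.8 and 44.8), near ITGA5 and ITGAV, and 1.18 kb upstream of THBS1 (30.7 and 33.7). ITGA2, ITGA5 and ITGAV encode integrin alpha subunits, and those 3 opened sites held AP-1 motifs. Near VCL, the vinculin gene, a site with a CArG box went from 44.5 and 42.7 to 65.5 and 64.7. SDC4 had changes in both directions within a single gene. Its start went from 47.9 and 38.1 to 62.5 and 68.4 and a nearby site was opened, while the intronic site described above was ranked lower. TNS3, a tensin gene, also had sites in each class, with 1 opened, 1 closed, 1 ranked higher and 2 lower. With either EGF library left out 1 of the 15 higher and 2 of the 4 lower calls remained. Without control replicates 1 and 2 the higher calls that remained numbered 7 and 5, and the lower calls 3 in both cases.

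Luminal lineage genes were split. Of 183 regions of 20 luminal markers 4 were opened and 3 closed, and of 148 shared regions 8 were ranked higher (5.41%) and 5 lower (3.38%). The gains lay at the keratin genes KRT7 and KRT8, the E-cadherin gene CDH1, and the epithelial factors ELF3 and TFAP2C. The losses lay at the transcription factor genes GATA3, SPDEF, ESR1, FOXA1, GRHL2 and XBP1 and at the mucin gene MUC1. The KRT7 start went from 79.3 and 73.2 to 87.8 and 90.4 in shared rank percentile, and an intronic region of GRHL2 from 39.4 and 38.9 to 6.44 and 4.10 (difference -1.35, SE 0.2, limma adjusted p = 0.019). A site near FOXA1 went from 27.3 and 29.8 to 1.88 and 4.88, and a site near XBP1 from 69.8 and 73.0 to 43.7 and 50.05. Both closed GATA3 sites were weak, at list rank percentiles of 19.6 and 10.8 at its start and 23.6 and 11.3 at 26.6 kb. Without EGF replicate 1, 0 of the 13 calls remained, and without EGF replicate 2, 2 of the higher and 1 of the lower. Without control replicates 1 and 2, 4 and 3 of the higher calls and 1 of the lower calls remained.

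Of 128 regions of hypoxia and glycolysis genes 2 were opened (CA12 and PDK4, 1.56%) and 1 closed (HK2, 0.781%), and of 57 regions of NF-kB and interferon genes 1 was opened (CCL20) and 1 closed (CXCR4), 1.75% each. In neither list was any shared region called by limma (110 and 40 tested), and at an unadjusted p below 0.05 there were 16 higher and 11 lower in the first and 2 and 5 in the second. Basal and mesenchymal markers had 3 opened of 44 regions (6.82%), near CDH2 and SNAI1, and immune, endothelial and stromal markers had 3 opened (6.98%) and 1 closed (2.33%) of 43. The opened shares of these 2 lists were as high as those of the immediate early and adhesion genes, on 3 regions each. These were weak peaks, at list rank percentiles from 0.15 to 24.9 in the libraries that held them. Opened regions were weak in general, with a median of 12.6, and those of the immediate early list ranged from 0.52 to 75.1. None of the 35 and 29 shared regions of the 2 marker lists was called by limma (3 higher and 5 lower, and 5 and 5, at an unadjusted p below 0.05). The median difference in normal score was 0.140 over the shared regions of the ERK feedback list and 0.107 for adhesion genes. It was 0.0598 for immediate early genes and 0.0566 for HER receptors and ligands, against a median of 0 over all shared regions. For the remaining lists it was 0.0147 for immune, endothelial and stromal markers, 0.00586 for hypoxia and glycolysis genes, -0.0091 for adaptors and kinases, -0.019 for luminal markers, -0.0332 for basal and mesenchymal markers and -0.0377 for NF-kB and interferon genes.

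**Figure D3:**
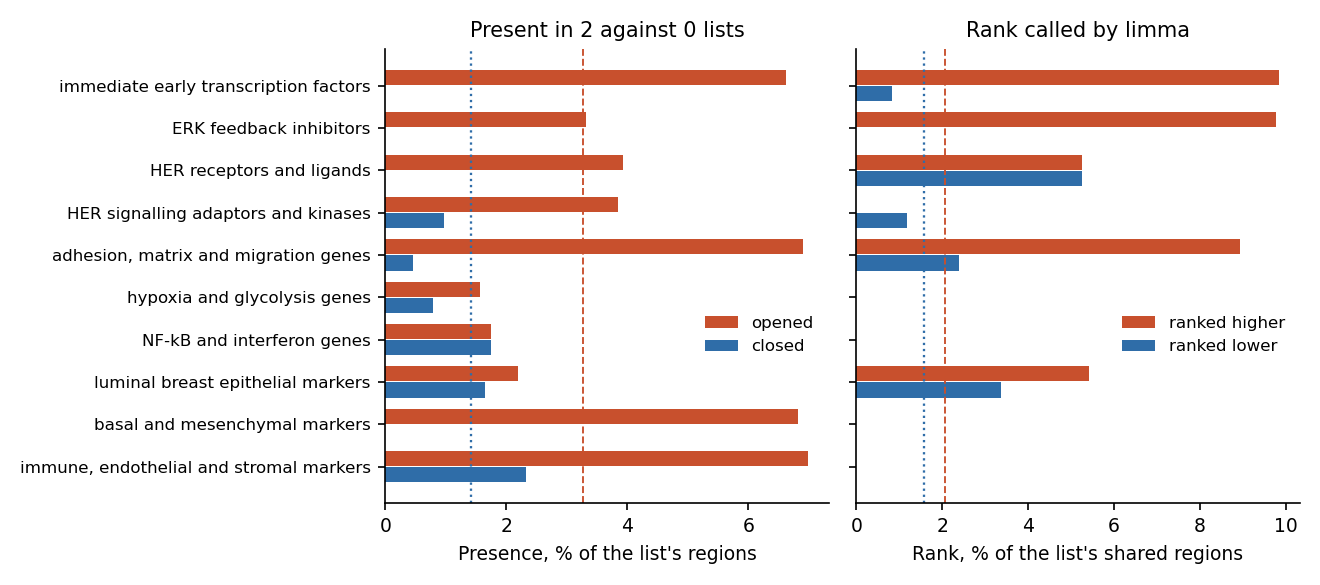
The percentage of each gene list's regions that were opened or closed (left) and of its shared regions that limma ranked higher or lower (right), in orange for gains and blue for losses. The dashed orange and dotted blue lines mark the shares over all regions (3.27% and 1.41% on the left, 2.07% and 1.57% on the right). The immediate early and adhesion lists lie above the orange line in both panels. On the left the ERK feedback list (3.31%) and HER receptors and ligands (3.92%) lie close to it, and the latter have equal shares of gains and losses (5.26%) on the right.

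Changed regions overlapped promoters less often than all regions did. A promoter, the 1 kb on either side of any annotated transcript start, was overlapped by 296 of 1810 opened regions, or 16.4% (95% Wilson interval 14.7% to 18.1%), by 15.8% of closed regions, and by 36.7% of all merged regions. For regions ranked higher and lower the shares were 25.1% and 31.9%, against 42.1% of shared regions. The classes also differed in strength. Median list rank percentiles were 12.6 for opened and 10.4 for closed regions, against 43.0 over all merged regions. For regions ranked higher and lower they were 63.4 and 69.0, against 56.3 for shared regions. The part of strength in the promoter shares was not tested. The summits of 50.9% of opened regions lay in introns and of 30.7% between genes. The median distance from an opened region to the nearest protein-coding start was 18.3 kb, against 8.07 kb over all merged regions. Changes were not gathered on a few chromosomes, since both classes were found on all 23 and no chromosome held more than 9.5% of either.

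The AP-1 motif was frequent at gains and rare at losses. It stood within 100 bp of the summit in 655 of 1810 opened regions, or 36.2% (95% Wilson interval 34.0% to 38.4%), and in 351 of 879 regions ranked higher, or 39.9%. In the other direction it was found in 15 of 779 closed regions, or 1.93% (95% Wilson interval 1.17% to 3.15%), and in 21 of 668 regions ranked lower, or 3.14%. Over windows of the same length at all 55399 merged regions the share was 12.0%. Read from the motif, 9.86% of the 6646 regions with AP-1 were opened and 0.226% closed, against 3.27% and 1.41% of all regions. Of 4724 shared regions with the motif, 7.43% were ranked higher and 0.445% lower. The motif lay close to the summit, at a median of 29 bp in opened regions, and a similar 32 bp in all regions with it. These intervals cover counting error only, and the motif was read from the reference genome and not from these cells.

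The CArG box was rarer than the AP-1 motif. It was present in 51 of 879 regions ranked higher, or 5.80%, and in 1 of 668 ranked lower, against 0.944% of all regions. Among opened regions it was present in 1.93% and among closed regions in 0.770%. Of 371 shared regions with a CArG box 13.7% were ranked higher, and of 45 that also had an AP-1 motif 15 were. GGAATG, the core of the TEAD factor site, was found in 21.3% of opened and 24.1% of higher regions, against 14.1% of all, 10.5% of closed and 13.02% of lower regions.

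Motifs of luminal lineage factors were read in the same windows. TGTTTAC, a forkhead site of the kind bound by FOXA1, was found in 9.56% of opened and 9.50% of closed regions, against 8.01% of all. The hexamer AGATAA, which GATA3 can bind, was found in 11.4% and 12.2%, against 8.49%. GCCNNNGGC, a site of TFAP2 factors, was found in 13.6% of opened and 12.5% of closed regions, and in 14.8% of regions ranked higher and 19.3% of those ranked lower, against 17.4% of all. Promoter motifs were less frequent in both changed classes than over all regions, with CCGGAA, the ETS core, in 3.54% of opened and 1.80% of closed against 8.19%, and GGGGCGGGG, the GC box, in 1.105% and 0.899% against 6.01%. All motifs were searched on both strands, and CCGGAA and GGAATG can share bases. Median GC content of the 201 bases was 47.3% in opened, 48.3% in closed, 49.8% in higher and 53.2% in lower regions, against 53.2% over all regions, and its part in these shares was not tested.

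**Figure D4:**
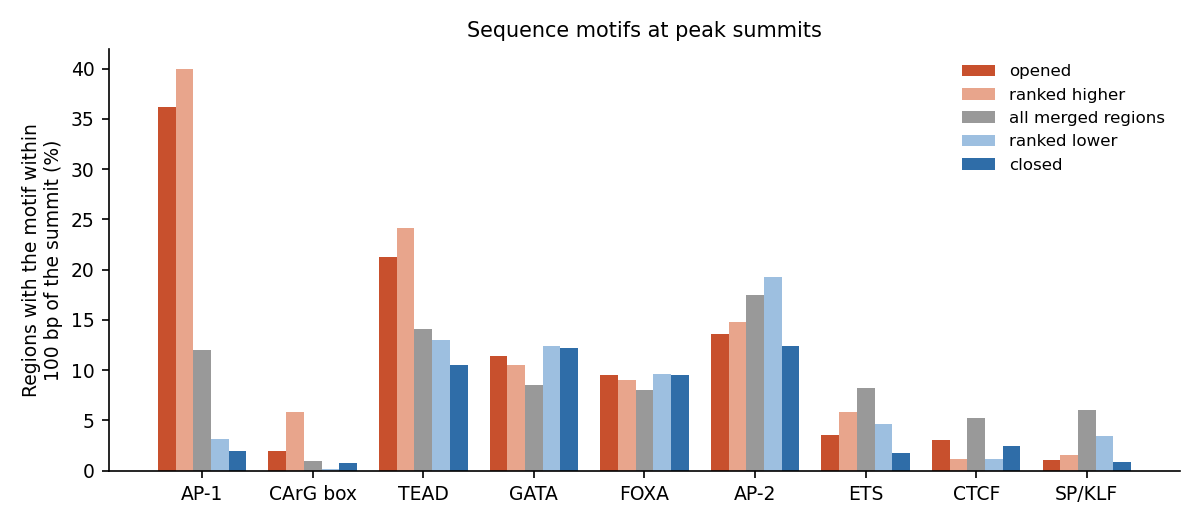
The percentage of regions (vertical axis) with each motif within 100 bp of the summit, for opened regions, regions ranked higher, all 55399 merged regions, regions ranked lower and closed regions. The AP-1 bars stand at 36.2% and 39.9% for gains, 12.0% for all regions and 3.14% and 1.93% for losses.

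The BT474 libraries that the comparison did not use were read at the same regions. HRG acts through HER3 and HER4. Of the regions EGF opened, 70.1% and 81.4% had a peak in the 2 HRG libraries at 1 h, against 22.2% and 14.8% in the 2 baseline libraries. The mean difference of 57.3 percentage points was 9.50 when every list was cut to its 32479 strongest peaks, the number in the shortest of the 40 lists. Of the regions EGF closed, 10.0% and 17.6% had a peak after HRG, against 76.8% and 60.1% at baseline. Over all merged regions the shares were 82.7% and 86.4% after HRG and 86.7% and 83.2% at baseline, and the 2 groups overlapped. In 873 of the 1810 opened regions, or 48.2%, both HRG lists and neither baseline list held a peak, against 3.82% of all regions, and 29 showed the reverse. In 324 of the 779 closed regions, or 41.6%, both baseline lists and neither HRG list did, against 3.61% of all regions, and 10 showed the reverse.

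The ranks moved in the same direction. Ranks were retaken among the shared regions open in both HRG and both baseline lists. Of 814 regions ranked higher after EGF, 761 (93.5%) stood higher in both HRG libraries than in both baseline libraries, against 31.3% of all 39533 regions ranked. Of 618 regions ranked lower after EGF, 524 (84.8%) stood lower in both, against 29.8% of all. Among regions ranked higher the share was 99.1% of the 327 with an AP-1 motif and 89.7% of the 487 without. HRG libraries were collected after fresh medium and 1 h of treatment and baseline libraries before it, so ligand and medium change cannot be told apart in this pair.

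Gains persisted in part at later times and losses did not. Of the regions opened at 1 h, 50.6% and 67.9% had a peak in the EGF libraries at 12 h, against 19.3% and 18.6% in the controls of that time. At 24 h the shares were 54.0% and 60.1% against 28.2% and 23.1%. Regions closed at 1 h were back, with 73.9% and 79.7% at 12 h and 73.0% and 75.7% at 24 h in EGF libraries, against 66.1% and 66.5%, and 75.1% and 72.9%, in the controls. In the controls of both times the share stood below the 100% that the rule fixes for the controls at 1 h. Over all merged regions the shares at 12 h were 89.7% and 91.9% in EGF libraries, against 85.3% and 85.2% in the controls. At 24 h they were 89.4% and 91.1% against 88.3% and 86.6%. The EGF lists of both times were also longer, with 52135 and 56846 peaks against 49386 and 49767 at 12 h. At 24 h they held 55225 and 56363 peaks against 52331 and 50579. The part of list length in these shares was not tested.

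Taking 12 and 24 h together, 290 of the 1810 opened regions, or 16.02%, had a peak in all 4 EGF libraries and in none of the 4 controls, against 1.45% of all regions. For closed regions the number was 8 of 779, or 1.03%. The reverse, a peak in all 4 controls and no EGF library, was met in 4 opened and 2 closed regions, and in 0.0794% of all regions. By Fisher's exact test on 4 against 4 libraries, 848 regions reached an unadjusted p of 0.0286, the smallest it can give, and 0 passed after Benjamini-Hochberg adjustment over all 55399. The opened regions with an AP-1 motif had this later pattern in 173 of 655 cases, or 26.4%, and those without in 117 of 1155, or 10.1%. The 4 opened regions that were later seen in controls alone, singled out here after their values were seen, lay near NR4A1, GAB2, TMEM182 and ARMC1, and the NR4A1 site is the strong one described above.

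**Figure D5:**
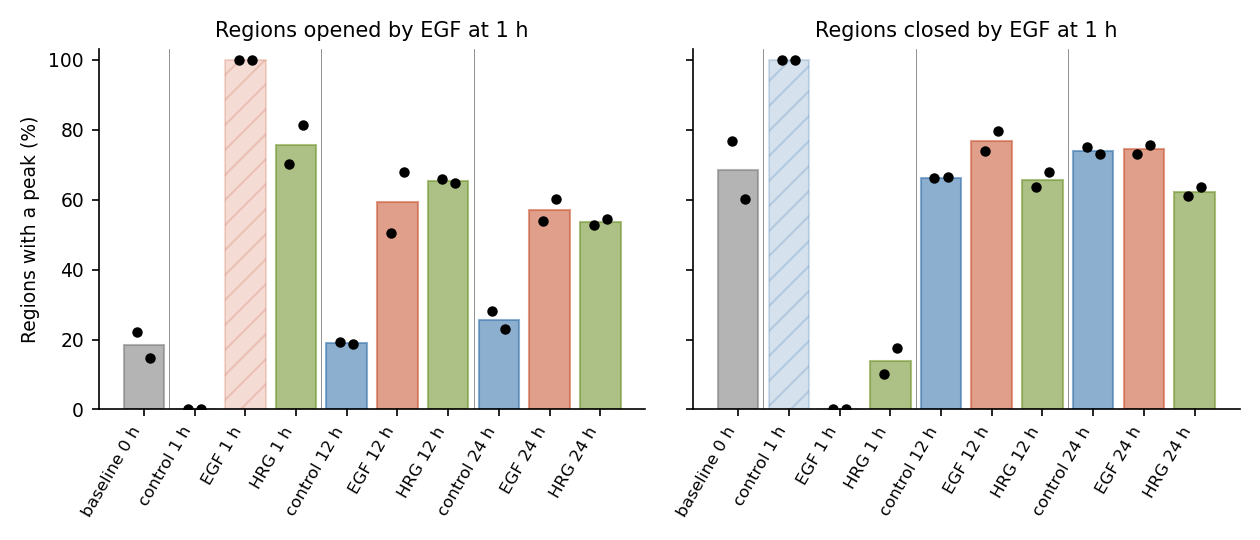
The percentage of the 1810 opened (left) and 779 closed (right) regions that held a peak in each BT474 library, with points for the 2 libraries of a group and bars for their mean. The hatched bars are fixed by the rule that chose the regions, and among the others the closed regions are low only after HRG at 1 h (10.0% and 17.6%).

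Ranks at the later times followed the same course. Ranks were retaken among shared regions open in all 8 EGF and control libraries of 12 and 24 h. Of 771 regions ranked higher at 1 h, 358 (46.4%) stood above every later control library in every later EGF library, against 11.3% of all 39739 regions ranked. Of 662 regions ranked lower at 1 h, 35 (5.29%) stood below in every library, against 8.8% of all, and 125 (18.9%) stood above. Regions ranked higher with an AP-1 motif kept that position in 61.0% of 308 cases and those without in 36.7% of 463.

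The same regions were also read in the resistant BT474R line at 1 h. Regions opened in BT474 had a peak in 48.1% and 43.7% of cases in the EGF libraries of BT474R and in 42.7% and 40.4% in its controls. Regions closed in BT474 had one in 38.9% and 31.8% after EGF and in 53.7% and 52.4% in the control. Over all merged regions the shares were 75.4% and 71.5% against 78.6% and 77.9%. The BT474 shares at 1 h are fixed by the rule, so the size of the response cannot be compared between the lines here, and the difference was not tested.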

How the data were processed

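Peak lists of BT474 libraries were compared after 1 h of EGF or vehicle, 2 against 2. Per the study's methods and the submitters' processing notes, the authors trimmed reads with Trim Galore 0.6.6, mapped them to GRCh38 with BBMap, and called peaks in each library separately with Genrich, removing mitochondrial and blacklisted reads. Whether Genrich's ATAC mode, which centres reads on cut sites, was used is not given in the sources used here, and it can change peak widths. Each deposited peak carries a score, the area under the curve of its significance, which depends on depth and served only for ranking or filtering peaks of the same list. The authors' count model on reads was not repeated.

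Peaks were merged at 1 bp of overlap. The 4 lists held 33 to 36 peaks on other sequences, which were left out, and no peak reached past a chromosome end of the reference. Starts were taken from GENCODE release 44, in which a promoter can be an internal transcript start. Shared regions were ranked, turned into normal scores and tested with limma 3.58.1 (R 4.3.3, trend and robust options), adjusted over all shared regions. In simulated data for this comparison (42540 regions), 67 of 100 regions shifted by 0.5 and 84 of 100 shifted by 1 were called, with 24 of 42340 unchanged regions. Simulated regions of the same strength shared the same spread with normal noise, which real regions need not do, so these rates may not hold here. Named regions were the 10 opened and 10 closed with the highest mean list percentile, the 10 ranked higher and 10 lower with the smallest adjusted p, changed regions of listed genes, and the promoters of EGFR, ERBB2, ERBB3, FOS, JUN, JUNB, EGR1 and DUSP6. The regions, lists and motifs were chosen with earlier results of these data known. Alternatives were a score of at least 400, equal list lengths, peaks trimmed to 400 bp, 50% coverage, other rank scales, a replicate block, promoters of 3 kb, a 250 bp motif window and each library left out. Python 3.11.15, pandas 2.3.3, scipy 1.17.1 and pysam 0.24.0 were used. Results for some genes are not reported here.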

Additional observations from a re-analysis of the deposited data

How the results depend on the processing

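The difference in peaks per library, 1765 more after EGF, was reversed without EGF replicate 1 (-108 to 3638 with a library left out). The opened count ranged from 2466 to 3971 and the closed count from 1156 to 2275 with a library left out, where fewer lists must agree, and with equal list lengths closed regions numbered 1227. Regions opened by EGF that also had a peak in both HRG 1 h and no baseline list numbered 873 (chosen after seeing the data). Regions ranked higher numbered 1473 with ranks among all peaks, 566 in a fit of all 20 BT474 lists and 96 to 769 with a library left out, and regions ranked lower 196 to 301 with a library left out. The replicate block gave 453 higher and 355 lower. The replicate numbers did not pair the libraries (correlation of deviations -0.00569). Of the opened regions, 506 at 12 h alone and 462 at 24 h alone had a peak in both EGF libraries and neither control, and 306 to 369 did with 1 of the 8 later lists left out. The share of opened regions present after HRG exceeded that at baseline by 57.3 percentage points, by 51.6 to 63.0 with 1 of those libraries left out, and by 9.50 when all 40 lists were cut to 32479 peaks, a cut that removes weak peaks. The promoter share was 29.4% within 3 kb and 21.1% at a score of at least 400, and the AP-1 share was 43.0% within 250 bp, against 16.5% of all regions. The causes were not tested. No named rank call reversed in direction. An opened or closed call could only be kept or lost in these settings, so its lack of a reversal carries no information. Of 77 named rank calls, 47 stood under the block, 33 of the 69 that could be fitted stood over all 20 BT474 lists, and 25 and 28 without EGF replicate 1 and 2, and of 75 named opened or closed regions 17 stood at a score of at least 400. Depth was unknown, and weak peaks limit the presence calls.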
